A study of Homo sapiens with 10 samples.

Results

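PRG2, SOD3, SPARC, FAM19A2, ARHGDIB, GMFG, APBB2 and HDAC9 were followed through 5 populations of K562 cells because their transcript levels changed strongly from one population to another. They are 8 of the 20535 genes listed in every library, and all 8 were among the 10127 genes that entered the tests, for which a mean of 1 TPM or more over the 10 libraries was required. The 8 genes were chosen by the TPM levels of these same 10 libraries, so their levels are a description and carry no test. TPM gives the abundance of a transcript relative to all others, corrected for transcript length and scaled to a fixed total, so levels of different genes may be compared. The number of reads behind a value is unknown, and the limited precision at low TPM cannot be stated as an interval.

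K562 is a line established from a human myelogenous leukemia that expresses the embryonic and fetal globin genes. There were 5 groups with 2 libraries in each. The control group, sgGal4, had an sgRNA without a target, and the labels do not name the effector in these cells. The other 4 groups carried sgRNAs against HS2, an enhancer of the β-globin cluster. The single effectors were dCas9-KRAB, abbreviated K, and dCas9-LSD1, abbreviated L. The dual effectors were enCRISPRi-LK (LK), in which dCas9-LSD1 was combined with KRAB brought in through the MS2 hairpins of the sgRNA, and enCRISPRi-KL (KL), in which the roles were exchanged. KRAB is a repressor domain and LSD1, encoded by KDM1A, is a histone demethylase. Per the methods, cell lines were made by lentiviral transduction, sorted for fluorescent markers and induced with doxycycline. Whether the libraries of a group came from separate transductions is not given in the sources used here. An effect of the effector and a difference between separately derived cell populations therefore cannot be told apart in any of the comparisons. P-values measure only the spread between these libraries, which may be technical.

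Transcripts listed under KDM1A and ZNF10, genes related to the effectors, did not follow the labels in every group. KDM1A was at 25.2 and 33.5 TPM in the sgGal4 libraries and at 105 and 84.2 TPM in the libraries labelled L, but at 26.6 to 30.6 TPM in those labelled LK or KL. ZNF10, the source of a widely used KRAB domain, was at 1.18 and 3.80 TPM in the libraries labelled K, near the 0.970 and 1.89 TPM of sgGal4. It was at 128 and 136 TPM in those labelled L, 36.8 and 31.5 TPM in those labelled LK and 365 and 360 TPM in those labelled KL. Whether the reads of KDM1A and ZNF10 come from the effector constructs was not tested. The letters K, L, LK and KL are used below as the labels give them. A list of 15 erythroid genes summed to 2207 to 5041 TPM in every library, mostly from the globin genes HBE1, HBZ and HBG2. GATA1, an erythroid transcription factor gene of the same list, was listed at 0 in all 10 libraries, and GPX1, which most cells express, was at 0.63 TPM or less. A listed 0 is therefore not read as the absence of a transcript, here or for the 8 genes. The 13 mitochondrial genes took 53.6% of the listed TPM in sgGal4 replicate 1 and 39.9% to 46.6% in the other libraries. The library with the highest share thus belongs to the control group of every comparison with sgGal4.

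The 8 genes belong to 3 kinds. PRG2, SOD3, SPARC and FAM19A2 encode secreted or granule proteins. ARHGDIB and GMFG encode cytoplasmic proteins that regulate the actin cytoskeleton, and both are known as genes of blood cells. APBB2 encodes an adaptor that binds the intracellular tail of the amyloid precursor protein, and HDAC9 encodes a class IIa histone deacetylase that acts as a partner of MEF2 transcription factors. None is part of the globin cluster, and their loci lie on 6 chromosomes: on chromosome 4 (SOD3 and APBB2), 5 (SPARC), 7 (HDAC9), 11 (PRG2), 12 (FAM19A2 and ARHGDIB) and 19 (GMFG).

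The promoters of 4 of these genes are shown because both KL libraries stood outside all others: above them for SPARC, ARHGDIB and GMFG and below them for HDAC9. Each sequence is the 250 bases before the transcription start in RefSeq (GRCh38.p14), placed in hg19 by an exact match and printed 5′ to 3′ on the strand of the gene, with matches to a searched motif in capitals.
SPARC, chr5:151066477-151066726, minus strand: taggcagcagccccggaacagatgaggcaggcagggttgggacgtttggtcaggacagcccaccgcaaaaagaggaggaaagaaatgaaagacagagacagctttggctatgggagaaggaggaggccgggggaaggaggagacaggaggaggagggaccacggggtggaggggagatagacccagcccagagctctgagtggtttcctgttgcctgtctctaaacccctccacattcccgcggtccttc
ARHGDIB, chr12:15101831-15102080, minus strand: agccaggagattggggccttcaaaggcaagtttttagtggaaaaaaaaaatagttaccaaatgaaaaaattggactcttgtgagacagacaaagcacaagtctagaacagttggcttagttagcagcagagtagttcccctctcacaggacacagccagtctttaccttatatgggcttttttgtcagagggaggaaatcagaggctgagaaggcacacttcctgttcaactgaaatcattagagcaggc
GMFG, chr19:39826684-39826933, minus strand: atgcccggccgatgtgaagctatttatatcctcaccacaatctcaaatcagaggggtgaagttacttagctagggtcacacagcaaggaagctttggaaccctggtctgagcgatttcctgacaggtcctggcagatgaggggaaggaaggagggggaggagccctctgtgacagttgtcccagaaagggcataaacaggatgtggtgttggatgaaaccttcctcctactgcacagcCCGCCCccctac
HDAC9, chr7:18535122-18535371, plus strand: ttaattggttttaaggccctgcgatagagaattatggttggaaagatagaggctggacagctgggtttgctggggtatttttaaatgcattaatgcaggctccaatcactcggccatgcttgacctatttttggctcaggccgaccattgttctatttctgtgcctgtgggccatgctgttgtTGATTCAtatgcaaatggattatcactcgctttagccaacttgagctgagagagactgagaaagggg
The SPARC window overlaps the first bases of the gene as annotated by GENCODE. The other 3 windows lie inside the annotated gene body, and which of the annotated transcripts K562 cells use was not measured. The motifs searched on both strands were AGATAA, bound by GATA factors, TGANTCA, and GGGCGG, bound by SP and KLF factors. They occurred in 9.17%, 6.57% and 42.6% of the 35116 promoters of the table. TGANTCA is wider than the AP-1 site, TGA(C/G)TCA, so its share covers other sequences too. The HDAC9 window held 1 match to TGANTCA, 67 bases before the start. Its letters, TGATTCA, have a T at the middle base and so differ from the AP-1 site. The GMFG window held 1 match to GGGCGG on the opposite strand, 12 bases before the start. The FAM19A2 window, which is not shown, held 1 match to AGATAA on the opposite strand, 180 bases before the start. No motif was found in the windows of SOD3, SPARC, ARHGDIB and APBB2, and PRG2 had no entry. The CG dinucleotides, which are dense in CpG island promoters, numbered 0 for ARHGDIB, 4 for GMFG and HDAC9, 5 for FAM19A2, 7 for SPARC, 10 for SOD3 and 24 for APBB2, beside a median of 11 over all promoters. ARHGDIB and APBB2 were thus at the ends of the members' range, with 6.1% and 78.4% of all promoters holding as many CG dinucleotides or fewer.

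**Figure D1:**
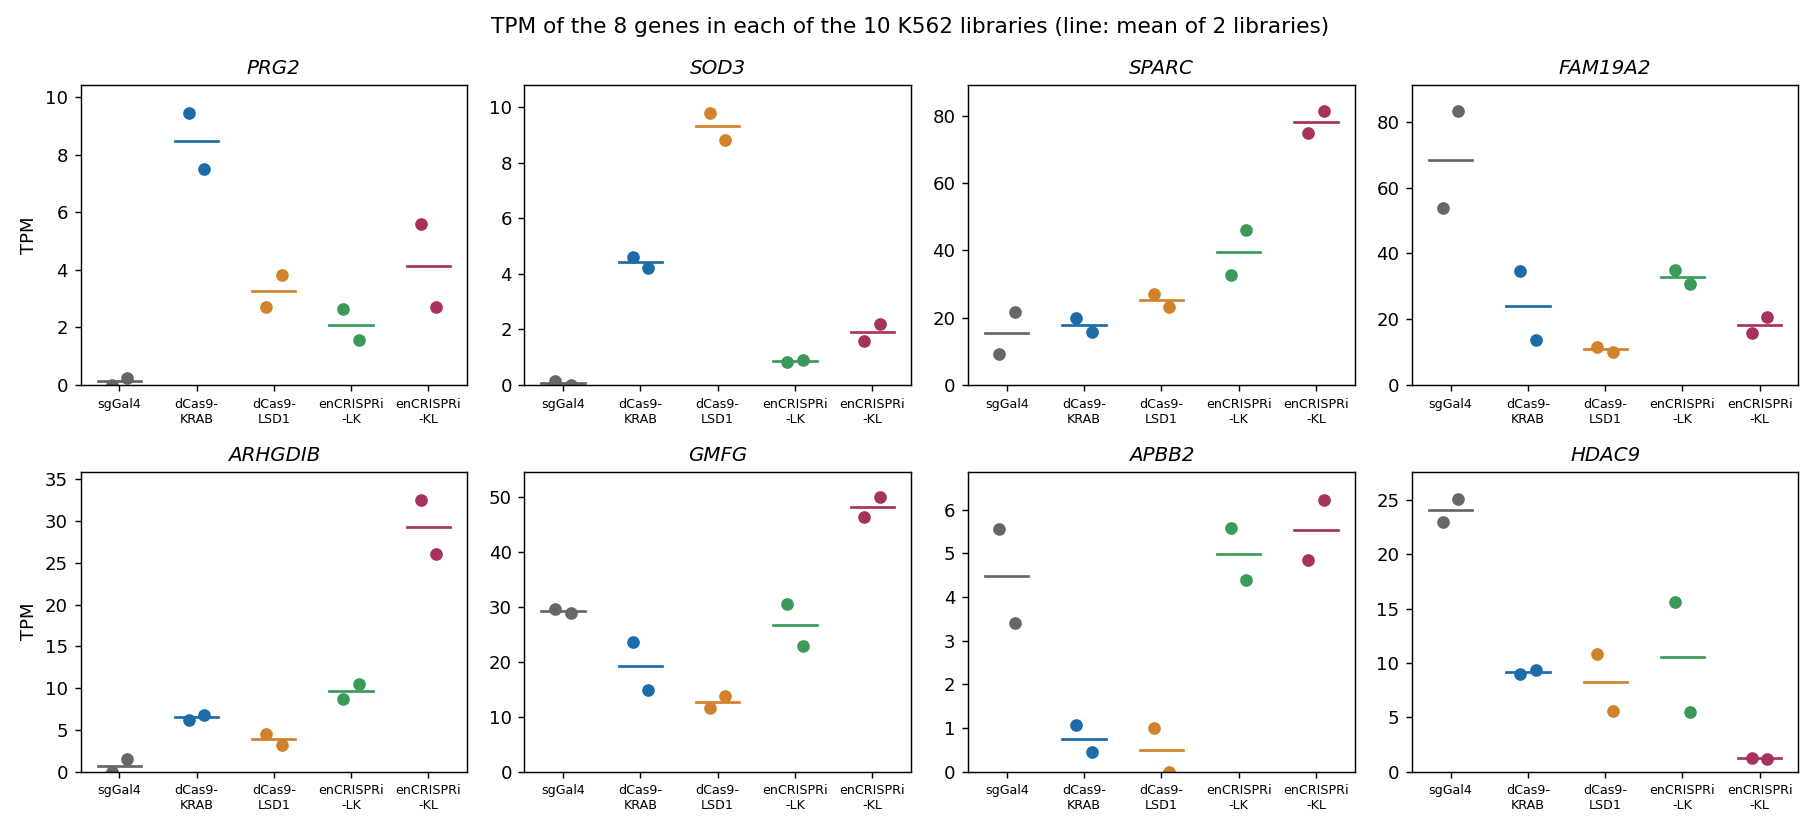
Level of each of the 8 genes in TPM (y axis, own scale per panel, starting at 0) in the 2 libraries of the 5 groups (x axis). Points are libraries and lines are means of 2 libraries. SOD3 and ARHGDIB differ between all neighbouring groups in their order, whereas the libraries of APBB2 form a low pair of groups (K and L) and a high set of 3.

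PRG2 (chromosome 11, 57154253 to 57158123, minus strand) encodes major basic protein, a toxic protein of eosinophil granules. Its transcript was listed at 0 and 0.26 TPM in the sgGal4 libraries. It was at 9.46 and 7.51 TPM in K, 5.59 and 2.70 TPM in KL, 2.71 and 3.81 TPM in L, and 2.63 and 1.57 TPM in LK. All 8 libraries with HS2 sgRNAs were above both sgGal4 libraries, K was above every other group, and L and KL overlapped. The group means differed by up to 3.07 on the log2(TPM + 1) scale (K against sgGal4), beside a pooled replicate SD of 0.36. This scale understates changes of genes at a few TPM. No fold is given against sgGal4 because 1 of its libraries was listed at 0. GENCODE holds another protein-coding gene that overlaps PRG2 on the same strand and is not among the genes listed. How reads from the overlap were assigned is not known.

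None of the 9 genes listed as the family or process of PRG2 reached a mean of 1 TPM, and 5 of them were listed at 0 in every library. PRG3, the paralogue of PRG2 beside it in the genome, RNASE2 and CLC were among those at 0 throughout, and EPX, eosinophil peroxidase, reached at most 0.13 TPM. The summed level of 12 eosinophil and basophil genes was 0 in both sgGal4 libraries, at most 0.13 TPM in K and at most 1.46 TPM in any library. The eosinophil genes were thus listed at or near 0 in the K libraries, where PRG2 was highest, within the limit that a listed 0 has in these tables. A megakaryocyte list of 12 genes summed to 111 and 115 TPM in K and to 58.9 to 79.7 TPM elsewhere. This sum was mostly GP1BB, a subunit of the platelet von Willebrand factor receptor, with a mean of 105 TPM in K and 67.6 TPM in sgGal4. TUBB1 had the opposite order, with means of 1.59 TPM in K and 3.81 TPM in sgGal4. The other tested genes of that list were ITGA2B, with its highest mean in KL (3.32 TPM), and THBS1, with its highest mean in K (6.1 TPM). None of the 4 tested genes passed the F-test, beside 1.82% of all tested genes. At an unadjusted p under 0.05 there were 3 of the 4, beside 15.8% of all tested genes. The part of these genes in the level of PRG2 was not tested. In a bulk sample, fewer cells with a transcript and less of it in each cell cannot be told apart.

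SOD3 (chromosome 4, 24791534 to 24802464, plus strand) encodes extracellular superoxide dismutase. It was listed at 0.13 and 0 TPM in the sgGal4 libraries and was at 0.82 and 0.90 TPM in LK. It was at 1.60 and 2.21 TPM in KL, 4.61 and 4.23 TPM in K, and 9.80 and 8.83 TPM in L. The libraries of no group overlapped with those of another, and the replicates were closer than for any other of the 8 genes, with a pooled SD of 0.12 beside a difference of 3.28 (L against sgGal4), both on the log2(TPM + 1) scale. Of its 10 family genes, which are antioxidant and copper-handling genes, 8 were tested, among them SOD1, SOD2 and catalase. Of these 0 passed the limma F-test for any difference among the 5 groups, with 1 (SOD1) at an unadjusted p under 0.05. Of all tested genes 1.82% passed, with 15.8% at an unadjusted p under 0.05. With so few genes in a list, a count of 0 says little, here and for the lists below.

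SPARC (chromosome 5, 151040657 to 151066536, minus strand) encodes osteonectin, a secreted protein that binds collagen and the extracellular matrix. It was expressed in every group. The level was 9.23 and 21.6 TPM in sgGal4, 20 and 15.6 TPM in K, 27.1 and 23.2 TPM in L, 32.8 and 46.0 TPM in LK, and 75.0 and 81.3 TPM in KL. The libraries of KL were above those of LK, these above L, and these above K, whereas K and sgGal4 overlapped. The mean of 78.2 ± 4.45 TPM (SD, n = 2) in KL was 5.07 times the 15.4 ± 8.75 TPM of sgGal4. The difference of 2.38 on the log2(TPM + 1) scale rested in part on the unequal sgGal4 libraries, since it was 1.81 without sgGal4 replicate 1 and 2.95 without sgGal4 replicate 2.

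Of the 10 family genes of SPARC 2 were tested, and neither passed the F-test, also at an unadjusted p under 0.05. The shares of all tested genes were 1.82% and 15.8%. FN1, which encodes the matrix protein fibronectin, was the tested gene of a fibroblast and endothelial list that passed. Its level was 103 and 129 TPM in sgGal4, 127 and 104 TPM in K, 31.7 and 31.3 TPM in L, 209 and 195 TPM in LK, and 28.7 and 27.4 TPM in KL. In KL, where SPARC was highest, FN1 was lower than in sgGal4 by a log2 difference of -2.00 (SE 0.185, limma, adjusted p = 6.61e-05), and it was lower in L as well (-1.84, adjusted p = 0.000238). In LK it was higher (0.80, adjusted p = 0.0420), a call that was lost under several alternatives, among them the fit of only the groups compared.

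FAM19A2 (TAFA2 in current annotation; chromosome 12, 62102054 to 62672931, minus strand) encodes a small secreted protein related to chemokines, known chiefly from the nervous system. It was highest in the sgGal4 libraries, at 53.7 and 83.2 TPM. It was at 35.1 and 30.6 TPM in LK, 34.5 and 13.7 TPM in K, 15.9 and 20.7 TPM in KL, and 11.6 and 10.2 TPM in L. Both sgGal4 libraries were above all others and both L libraries below all others, with LK, K and KL overlapping in between. The mean of 68.5 ± 20.9 TPM (SD, n = 2) in sgGal4 was 6.27 times the 10.9 ± 1.03 TPM of L. USP15, which overlaps FAM19A2 on the opposite strand, was at 83.8 to 147 TPM and its group means differed by 0.28 on the log2(TPM + 1) scale. The strand setting of the counting is not given in the sources used here. None of the 8 family genes, the FAM19A paralogues and proposed partners, reached a mean of 1 TPM.

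ARHGDIB (chromosome 12, 15094965 to 15114662, minus strand) encodes a cytoplasmic protein known chiefly from blood cells. It was listed at 0 and at 1.5 TPM in the sgGal4 libraries. The level was 4.54 and 3.25 TPM in L, 6.14 and 6.85 TPM in K, 8.70 and 10.5 TPM in LK, and 32.6 and 26.1 TPM in KL. No neighbouring groups in this order overlapped, and the mean in KL was 29.3 ± 4.57 TPM (SD, n = 2). The group means spanned 4.25 on the log2(TPM + 1) scale, with a pooled replicate SD of 0.46. This was the 4th widest range of all 10127 tested genes, a rank that carries no test since ARHGDIB was chosen for its change. This range depended on the sgGal4 libraries: it was 3.59 without sgGal4 replicate 1, which was listed at 0, and 4.91 without sgGal4 replicate 2. All 9 family genes were tested, including the ubiquitous paralogue ARHGDIA and the GTPases RAC1, RAC2 and CDC42. None passed the F-test, beside 1.82% of all tested genes. ARHGDIA and RAC2 were the 2 at an unadjusted p under 0.05, beside 15.8% of all tested genes.

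GMFG (chromosome 19, 39818993 to 39833012, minus strand) encodes glia maturation factor gamma, a protein of the cofilin fold that acts on branched actin in blood cells. It was expressed throughout. The level was 29.7 and 28.9 TPM in sgGal4, 23.6 and 14.9 TPM in K, 11.6 and 13.8 TPM in L, 30.5 and 22.9 TPM in LK, and 46.3 and 50 TPM in KL. The KL libraries were above all others and the L libraries below all others, while the sgGal4 pair lay within the spread of LK. Mean levels were 48.2 ± 2.62 TPM (SD, n = 2) in KL and 12.7 ± 1.53 TPM in L, a ratio of 3.79. GMFG had the narrowest range of the 8 genes, 1.84 on the log2(TPM + 1) scale.

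COTL1, coactosin-like protein, was the family gene that passed the test. Like GMFG it has the cofilin fold and binds actin filaments. Its level was 24.6 and 22.9 TPM in sgGal4, 14.8 and 19.1 TPM in K, 19.8 and 31.7 TPM in L, 25.9 and 22.7 TPM in LK, and 56.7 and 58.4 TPM in KL. The KL libraries stood above the other 8, with a log2 difference of 1.24 from sgGal4 (SE 0.262, limma, adjusted p = 0.0284) and an F-test across the groups at adjusted p = 0.0229. The F-test call was lost without K replicate 1 (adjusted p = 0.0570), KL replicate 1 (0.125) or KL replicate 2 (0.148), without the filter on low values (0.102) and without the mean-variance trend (0.113). In the low direction the genes parted, since GMFG was lowest in L and COTL1 in K.

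APBB2 (chromosome 4, 40812044 to 41218731, minus strand) was low in every group. It was at 5.55 and 3.41 TPM in sgGal4, 5.58 and 4.39 TPM in LK, and 4.84 and 6.23 TPM in KL. It was at 1.06 and 0.46 TPM in K, and at 1.01 and 0 TPM in L. The 6 libraries of sgGal4, LK and KL overlapped and were all above the 4 libraries of K and L, which overlapped with each other. The group means spanned 2.20 on the log2(TPM + 1) scale with a pooled replicate SD of 0.42. The difference between KL and L was 2.70 without L replicate 1 and 1.69 without L replicate 2, and in the latter case L was no longer the lowest group. Of its 9 family genes 4 were tested and none passed the F-test, also at an unadjusted p under 0.05. The shares of all tested genes were 1.82% and 15.8%. NSUN7, which overlaps APBB2 on the opposite strand, was listed at 0 in every library. Another protein-coding gene overlaps APBB2 on the same strand and is not among the genes listed.

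HDAC9 (chromosome 7, 18126572 to 19042039, plus strand) was highest in the sgGal4 libraries, at 23.0 and 25.1 TPM. It was at 8.98 and 9.34 TPM in K, 10.8 and 5.59 TPM in L, and 15.6 and 5.45 TPM in LK. In the KL libraries 1.28 and 1.21 TPM were left. The sgGal4 libraries were above all others and the KL libraries below all others, and K, L and LK overlapped. The mean of 24.0 ± 1.49 TPM (SD, n = 2) in sgGal4 was 19.3 times the 1.25 ± 0.0495 TPM of KL. The difference was 3.48 on the log2(TPM + 1) scale, the 8th widest range of all tested genes. This rank carries no test, since HDAC9 was chosen for its change. All 9 family genes of HDAC9, its paralogues and partners, were tested and none passed the F-test, also at an unadjusted p under 0.05. The shares of all tested genes were 1.82% and 15.8%. CD3D, a T cell receptor subunit gene and the main contributor to a T cell list, also had its highest mean in sgGal4, like HDAC9 and FAM19A2. It did not pass the F-test (adjusted p = 0.198), and its replicates were far apart in L (10.7 and 1.65 TPM) and KL (10.9 and 1.75 TPM). CD3G, the other tested gene of the list, did not pass either. Its means were 1.23 TPM in sgGal4, 3.295 TPM in K, 4.18 TPM in LK, 0.755 TPM in L and 0.29 TPM in KL. The 12 genes of that list summed to 27.6 and 36.1 TPM in sgGal4, 2.68 to 12 TPM in KL and 4.46 to 29.1 TPM in the other groups. CD3E, CD2, LCK and 3 more of the 12 were listed at 0 in every library, and the part of such cells in the result was not tested.

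**Figure D2:**
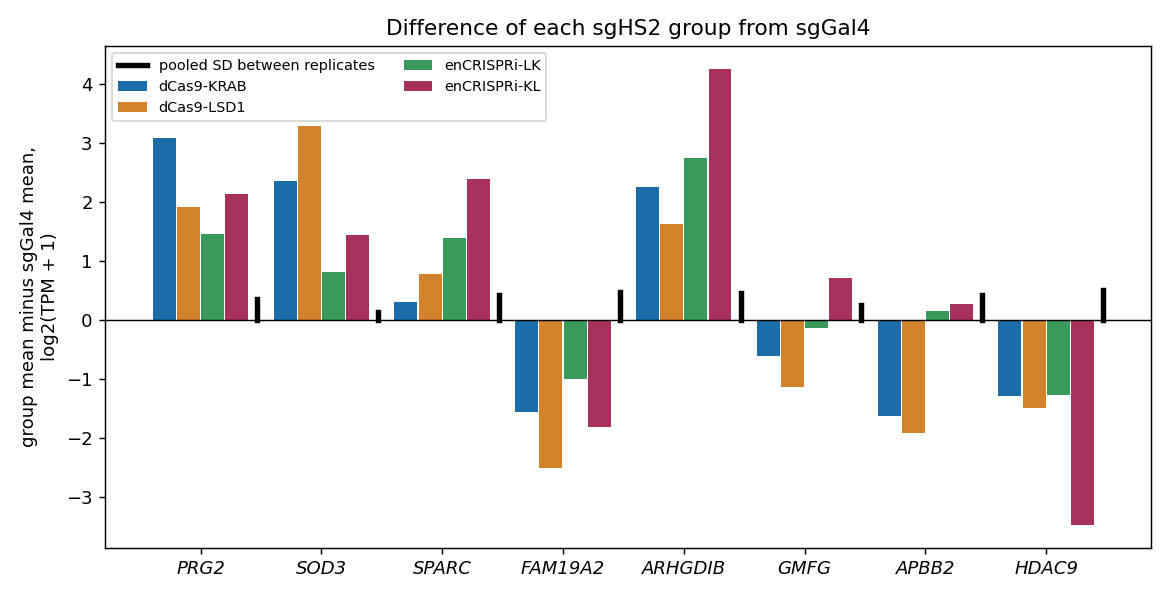
Difference of each HS2 sgRNA group from sgGal4 (bars) in log2(TPM + 1), for the 8 genes. The black bar at the right of each gene is the pooled SD between replicates, from 0.12 for SOD3 to 0.51 for HDAC9. PRG2, SOD3, SPARC and ARHGDIB have upward bars in all 4 groups, FAM19A2 and HDAC9 downward bars, and GMFG and APBB2 bars of both signs.

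A group was called on where both libraries had at least 5 TPM and off where both were under 1 TPM. On this rule PRG2 was off in sgGal4 and on in K, and SOD3 was off in sgGal4 and LK and on in L. The LK libraries of SOD3, at 0.82 and 0.90 TPM, were just inside the limit for off. ARHGDIB was on in K, LK and KL and between the limits elsewhere, as 1 sgGal4 library stood at 1.5 TPM. HDAC9 was on in 4 groups and just above the limit for off in KL. SPARC, FAM19A2 and GMFG were on in all 5 groups, and APBB2 was between the limits in all 5. Thus 2 of the 8 genes were both on and off among the groups, beside 0.257% of all tested genes (26 of 10127), and the other 6 changed in degree. With on set at 10 TPM neither PRG2 nor SOD3 was on in any group, so that 0 of the 8 genes were both on and off. All 8 genes passed the F-test for any difference among the groups, which follows from how they were chosen, beside 1.82% of all tested genes (184 of 10127).

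The groups were divided in 5 ways by their labels, and a gene was counted where all libraries of one side lay above all libraries of the other. Between the 8 libraries with HS2 sgRNAs and the 2 with sgGal4, 5 of the 8 genes were apart, beside 11.8% of all tested genes. PRG2, SOD3 and ARHGDIB were higher with HS2 sgRNAs, and FAM19A2 and HDAC9 were lower. Between dual (LK and KL) and single effectors (K and L), 4 genes were apart, beside 3.33% of all tested genes: SPARC, ARHGDIB and APBB2 were higher with the dual effectors and SOD3 was lower. By the fusion of dCas9, K and KL against L and LK, 0 of the 8 genes were apart, beside 3.28%. With KRAB in the label (K, LK and KL) against without it (L), 4 genes were apart, beside 9.92%: FAM19A2, ARHGDIB and GMFG were higher on the side labelled with KRAB and SOD3 was lower. ZNF10 did not follow this division, as it was at 128 and 136 TPM in L and at 1.18 and 3.80 TPM in K. Whether its level reports the KRAB of the effectors was not tested. With LSD1 (L, LK and KL) against without it (K), 2 genes were apart, beside 8.04%: SPARC was higher on the side labelled with LSD1 and PRG2 was lower. KDM1A was at 105 and 84.2 TPM in L, but at 26.6 to 30.6 TPM in LK and KL and at 29.2 and 27.7 TPM in K. Whether its level reports the LSD1 of the effectors was not tested either. The 8 genes were selected for differences between these same groups, so their counts cannot be read against the background shares.

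No single division described all 8 genes. SOD3 and ARHGDIB were apart in 3 of the 5 divisions, PRG2, SPARC and FAM19A2 in 2, and GMFG, APBB2 and HDAC9 in 1. Within the dual effectors, LK and KL shared the effector names. The libraries of APBB2 overlapped between them, and those of PRG2 nearly met, at 2.63 TPM in LK and 2.70 TPM in KL. How many of all tested genes were apart between LK and KL was not counted, so no count is given for the 8 genes. As the 8 genes were selected for differences between groups, their levels in LK and KL are a description only. The first division compares sgGal4 alone with all groups that carried HS2 sgRNAs, and the last 2 divisions each compare 1 group with 3. A difference in them cannot be told apart from a property of the cells labelled sgGal4, L or K, respectively.

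Among the 8 genes, log2(TPM + 1) over the 10 libraries gave a Pearson r of 0.90 for SPARC and ARHGDIB, of 0.84 for GMFG and APBB2, of -0.86 for ARHGDIB and HDAC9, and of -0.85 for SOD3 and FAM19A2. The points are 5 pairs of replicates, so these values describe the order of the groups. The 3 tested genes most like each member over the 10 libraries are given in the same way. For HDAC9 they were KLK13 (r = 0.946), PRDM9 (0.908) and EGR1 (0.905), and for FAM19A2 ZNF770 (0.973), PCED1B (0.967) and SORT1 (0.948). For SOD3 they were DCLRE1B (0.975), CCDC15 (0.935) and SLC39A8 (0.929), and for PRG2 ATP5J2 (0.927), HPRT1 (0.927) and NIP7 (0.922). For SPARC they were ETHE1 (0.949), GFOD1 (0.912) and RPL28 (0.909), and for ARHGDIB RPL15 (0.964), HMGN1 (0.960) and RPL28 (0.957). For GMFG they were ANGPT1 (0.950), RAB8B (0.940) and RREB1 (0.938), and for APBB2 ZFYVE21 (0.957), POU2F1 (0.930) and GIPC3 (0.912). RPL28, a ribosomal protein gene, was the one gene named for more than 1 member.

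The families of the 8 genes were read from lists of related genes. The 8 genes were not chosen by these lists, but the lists were drawn up with earlier results of these data known. Of 76 family genes 44 were tested, and 1 of the 44 passed the F-test (COTL1), beside 1.82% of all tested genes, with 5 of 44 (11.4%) at an unadjusted p under 0.05, beside 15.8% of all tested genes. In the 4 comparisons with sgGal4, the 1 family gene called by limma was COTL1, higher in KL. Of all tested genes, 1.62% were called in K, 0.869% in L, 2.00% in LK and 1.36% in KL. The widest range of group means in a family was 1.72 on the log2(TPM + 1) scale (COTL1). The median was 0.60 over the families and 0.64 over all tested genes.

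**Figure D3:**
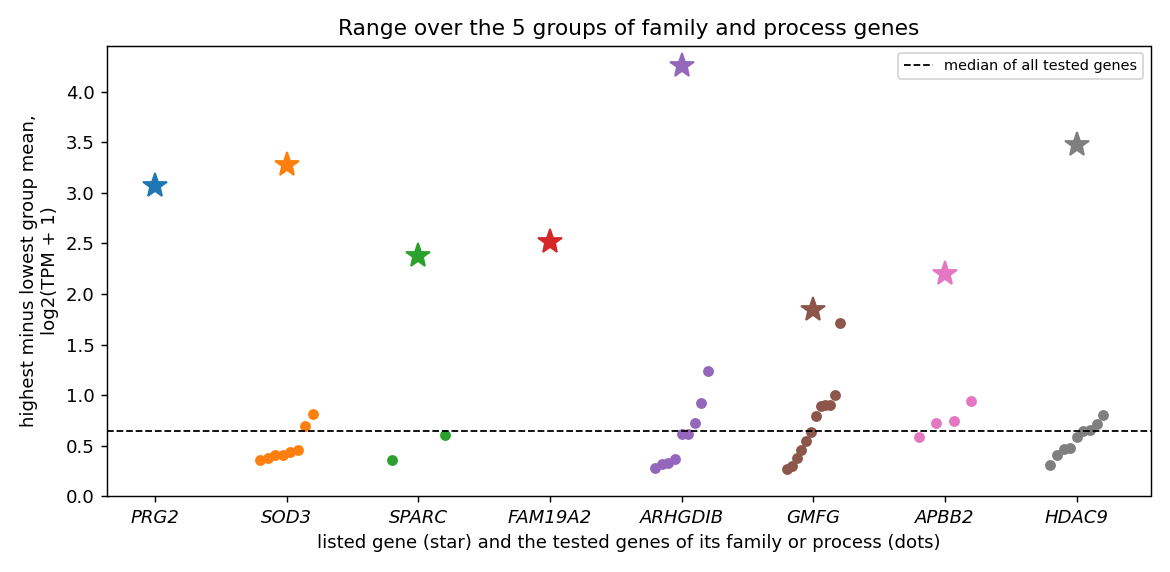
Highest minus lowest group mean in log2(TPM + 1) (y axis) for each of the 8 genes (stars) and the tested genes of its family or process (dots); the dashed line is the median of all tested genes, 0.64. The 8 genes were chosen for their change between these groups, so the place of the stars above the dots carries no test. The nearest dot to a star is COTL1 below GMFG. PRG2 and FAM19A2 have no dots because no family gene reached a mean of 1 TPM.

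Genes around the 8 loci passed the test about as often as all tested genes. Within 500 kb of their gene bodies GENCODE holds 108 other protein-coding genes, of which 98 were in the tables and 54 were tested. Of these, 1 passed the F-test, beside 1.82% of all tested genes, with 9 of 54 (16.7%) at an unadjusted p under 0.05, beside 15.8% of all tested genes. Their median range of 0.65 on the log2(TPM + 1) scale was next to the 0.64 of all tested genes. TMX2, a thioredoxin-related membrane protein gene 321942 bases from PRG2, was higher in LK than in sgGal4 by 0.75 (adjusted p = 0.0420). It did not pass the F-test (adjusted p = 0.125), and the call in LK was lost in 4 of 8 alternatives and in each of the 10 fits without 1 library.

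The neighbour that passed was TWIST1, which encodes a transcription factor of mesenchymal development and lies 18575 bases from the annotated gene body of HDAC9. TWIST1 was at 13.1 and 15.6 TPM in sgGal4, 17.0 and 17.3 TPM in K, 7.04 and 9.67 TPM in L, 17.6 and 9.72 TPM in LK, and 3.03 and 1.41 TPM in KL. Both KL libraries were below the other 8, as they were for HDAC9, with a log2 difference of -2.29 from sgGal4 (SE 0.372, limma, adjusted p = 0.00563) and an F-test at adjusted p = 0.0101. The F-test call was lost without KL replicate 2 (adjusted p = 0.0912), without the filter on low values (0.0937) and without the mean-variance trend (0.0689). The genes differed in K, where HDAC9 was below sgGal4 and TWIST1 above it in both libraries. SNX13, the other tested neighbour of HDAC9, was at 15.9 to 34.3 TPM with group means within 0.48 of each other on the log2(TPM + 1) scale and did not pass.

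**Figure D4:**
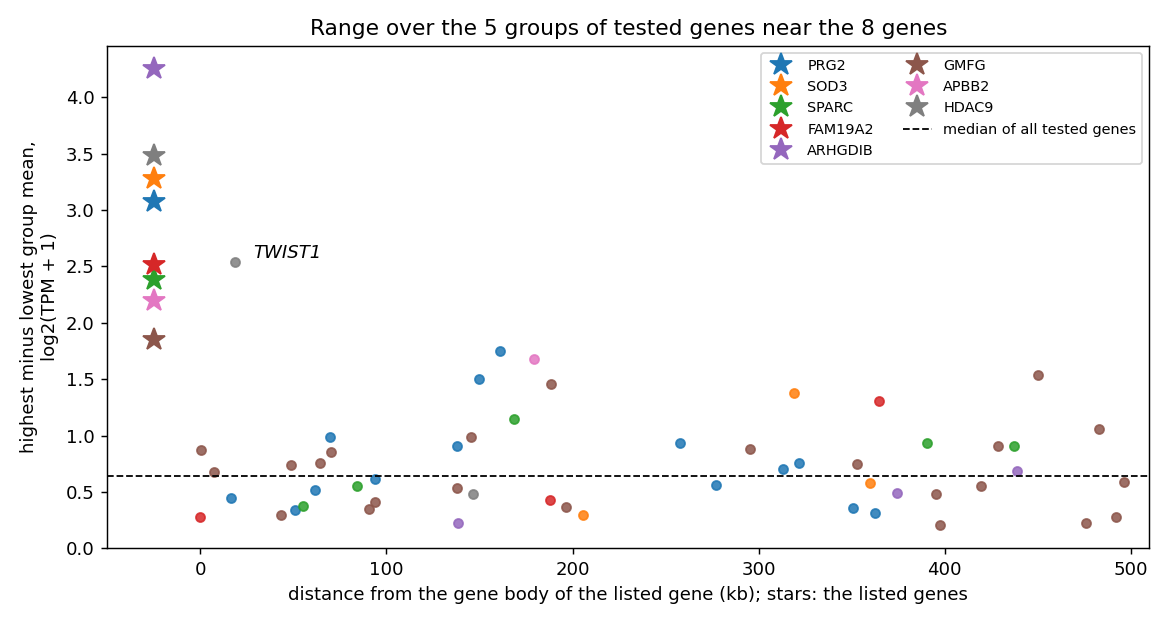
Highest minus lowest group mean in log2(TPM + 1) (y axis) of 54 tested neighbouring genes (dots) by their distance from the gene body in kb (x axis), coloured by the gene they lie next to. Stars left of 0 kb are the 8 genes, and the dashed line is the median of all tested genes, 0.64. TWIST1, at 2.54, is the one dot above the lowest star. The 8 genes were chosen for their change between these groups, so the height of the stars carries no test.

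**Figure D5:**
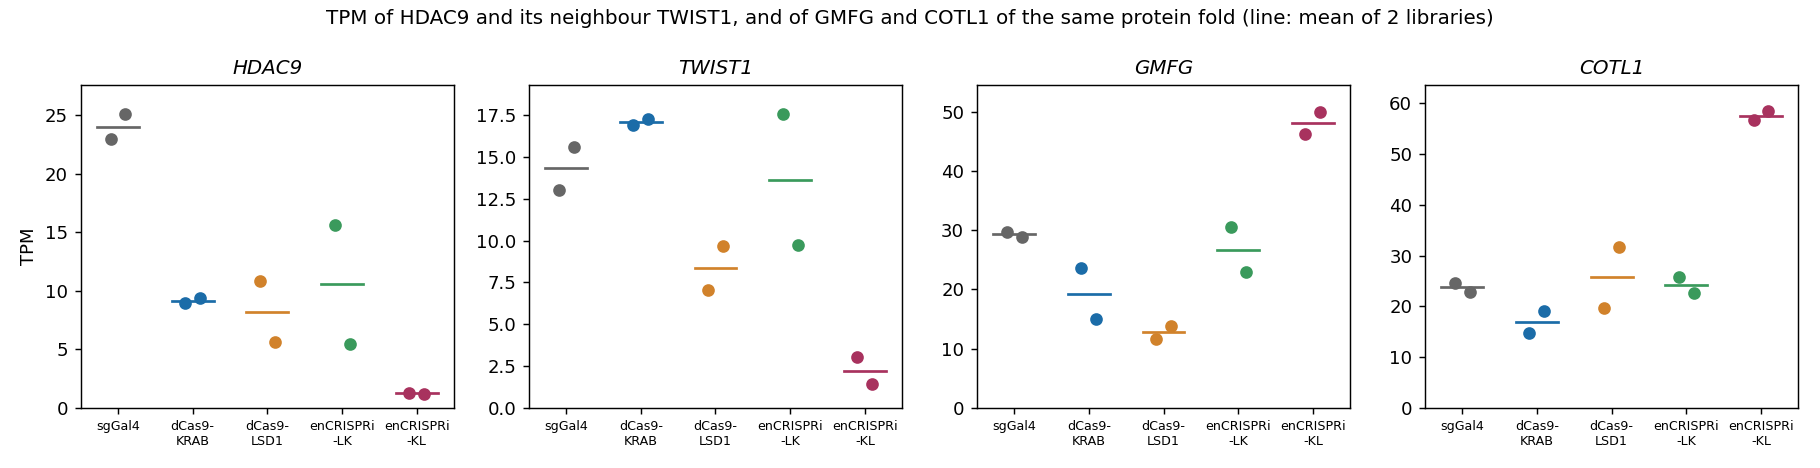
Level in TPM (y axis, own scale per panel, starting at 0) in the 5 groups (x axis) of HDAC9 and its neighbour TWIST1, and of GMFG and its relative COTL1. Points are libraries and lines are means of 2 libraries. In KL, HDAC9 and TWIST1 are at their lowest and GMFG and COTL1 at their highest.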

How the data were processed

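RNA-seq of K562 cells was read from 10 libraries, 2 for each of 5 groups, which were taken from the titles given to the libraries. The authors aligned reads to hg19 with STAR (version 2.5.2b), kept reads with 1 location, and deposited TPM values per gene symbol from RSEM. Reads that match several places in the genome therefore do not count toward a level. Reads from a stretch shared by genes that overlap at 1 place are not removed by this. The annotation is not given in the sources used here. The methods name the Ovation system and the labels a poly(A) directional kit. The methods compared read counts, which were not used here, so the TPM values were compared on the log2(TPM + 1) scale with limma (version 3.58.1, R version 4.3.3): 1 fit of all groups, 10127 genes whose mean reached 1 TPM, 5 residual degrees of freedom, variances moderated with a mean-variance trend, Benjamini-Hochberg adjustment over all genes tested and an adjusted p under 0.05 as the threshold. The fit was tested on simulated data. Settings varied were the pseudocount, the filter, the scaling, the trend, the groups in the fit, a replicate block, the window and each library. Tables and plots were made with Python version 3.11.15, numpy version 2.4.6, pandas version 2.3.3 and matplotlib version 3.10.9.

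The members and lists were chosen with earlier results of these data known. Named genes were the 8 members, the 3 tested genes with the highest Pearson r to each, tested family genes, neighbours within 500 kb past the F-test, and the effector and globin genes as a check of the labels. TMX2, SNX13, the overlapping genes USP15 and NSUN7, untested family genes and single genes of the marker lists were named after their values were seen. Gene positions are from GENCODE mapped to GRCh37.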

Additional observations from a re-analysis of the deposited data

Results flagged for a closer look

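GMFG, COTL1 and TWIST1 lay on opposite sides of sgGal4 in different groups, with both libraries of one group above and both of the other below the sgGal4 libraries. None of these differences between groups was tested. For GMFG, both KL libraries were above and both K libraries below sgGal4, and the group means of KL and K differed by 1.31 on the log2(TPM + 1) scale. Both L libraries were also below sgGal4, and KL and L differed by 1.84. For COTL1, the relative of GMFG, KL was above and K below sgGal4, with a difference of 1.72 between them. For TWIST1, the neighbour of HDAC9, K was above sgGal4 while L and KL were below it, with differences of 0.97 between K and L and of 2.54 between K and KL.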

How the results depend on the processing

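The 8 genes kept the direction of the difference between their highest and lowest group, both groups held fixed, under rescaling, quantile normalization, another pseudocount and the removal of each library: 93 of 104 values moved by less than the replicate SD, 11 moved by more (8 of them upward) and 0 reversed. With a pseudocount of 0.1 these log2 differences were 5.49 for PRG2, 5.95 for SOD3, 6.19 for ARHGDIB, 4.07 for APBB2 and 4.16 for HDAC9. Genes both on and off numbered 26, against 5 with on at 10 TPM and 15 with off under 0.5 TPM. Of the 8 genes, 2, 0 and 2 were among them. Counts of genes past the threshold moved more, and the cause was not tested. Without the filter on low values, the F-test called 58 genes in place of 184, 0 family genes and 0 neighbours (5 and 9 at an unadjusted p under 0.05), and the comparisons with sgGal4 called 51 in K, 37 in L, 61 in LK and 83 in KL. Without the mean-variance trend, limma called 39 genes by the F-test, 0 family genes and 0 neighbours (3 and 7 unadjusted), and 14 in K, 22 in L, 15 in LK and 75 in KL. Fits restricted to a group and sgGal4 gave 86 in K, 42 in L, 55 in LK and 82 in KL. Quantile normalization gave 151 in L, and a window of 1000 kb gave 2 neighbours. In the fit reported, K had 89 genes higher and 75 lower and LK 119 and 84. With size factors these became 85 and 102 for K and 102 and 113 for LK, and with quantile normalization 79 and 101 for K and 91 and 110 for LK.

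With each library left out in turn, the F-test called 71 to 163 genes, 0 to 1 family genes and 0 to 1 neighbours, and the comparisons called 9 to 230 in K, 16 to 138 in L, 20 to 210 in LK and 45 to 168 in KL. The lowest counts were without K replicate 2, L replicate 2, LK replicate 1 and KL replicate 2. The difference of TWIST1 between KL and sgGal4 passed in 8 of 8 alternatives (adjusted p from 0.00360 to 0.0498) and in 9 of 10 fits without 1 library, and that of COTL1 in 6 of 8 (0.0183 to 0.0857) and 5 of 10. Replicate numbers did not pair the libraries, since the deviations of same-numbered libraries correlated between -0.021 and 0.023 in 10 pairs of groups. With the replicate block, limma called 150 genes by the F-test, 1 family gene and 1 neighbour, and 119 in K, 69 in L, 151 in LK and 127 in KL. Depth is unknown for TPM, so levels below 1 TPM, such as those of SOD3 in LK, carry no stated precision.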

Other observations

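Erythroid genes differed between the groups as well. Of 15 genes listed for erythroid identity 14 were tested, and 4 passed the F-test, beside 1.82% of all tested genes. These were HBE1, HBG1, HBG2 and HBZ, all globin genes. At an unadjusted p under 0.05 there were 11 of 14, beside 15.8% of all tested genes. HBE1, HBG1 and HBG2 belong to the β-globin cluster, whose HS2 enhancer was the target of the sgRNAs. Against sgGal4, HBE1 was lower in K (-1.04, adjusted p = 0.00296), LK (-1.56, adjusted p = 2.55e-05) and KL (-2.00, adjusted p = 1.49e-06), HBG2 was lower in LK (-1.02, adjusted p = 0.00556) and KL (-1.81, adjusted p = 5.47e-05), and HBG1 was lower in KL (-1.13, adjusted p = 0.00994). HBZ, the embryonic α-like globin gene, was at a mean of 987 TPM in sgGal4 and 2311 TPM in L, where it was higher by 1.21 on the log2(TPM + 1) scale (limma, adjusted p = 0.00115), and it was higher in KL by 0.66 (adjusted p = 0.0340). KLF1, an erythroid transcription factor gene, did not pass the F-test (adjusted p = 0.0505), with means of 22.1 TPM in sgGal4 and 37.6 to 50.9 TPM in the other groups, but it was higher than sgGal4 in the comparisons of K (adjusted p = 0.0394) and L (adjusted p = 0.0190). Of the 12 neutrophil and monocyte genes 3 were tested and 0 were called by limma, with 0 at an unadjusted p under 0.05. These values, like the 8 genes, come from 1 set of cell populations, and their relation to the members was not tested.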
